A study of Homo sapiens with 10 samples.

Results

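The comparison described here set both MN1 fusion lines against every line without a fusion. The mean of the MN1-BEND2 and MN1-CXXC5 groups was compared with the mean of the CTRL, MN1 and BEND2 groups, each group weighted equally. It used all 10 libraries of the series, 4 from fusion lines and 6 from lines without fusion, with 2 libraries in each of the 5 groups, and 18127 of the 58216 genes in the table had enough reads to be tested. All lines are TREx293 cells, an established human embryonic kidney line that carries a tetracycline repressor and a recombination site, in which doxycycline switches on a construct placed at that site. The labels give the genotype of the CTRL group as WT, and those of the other groups as MN1 knockin, BEND2 knockin, MN1-BEND2 knockin and MN1-CXXC5 knockin. Per the labels' protocols, the constructs carried a triple HA tag in the pcDNA5/FRT/TO vector, and stable lines were selected with hygromycin and blasticidin. The labels do not say whether CTRL cells were given doxycycline or whether the replicates of a group were grown separately, so p-values here weigh a difference against a spread between libraries that may be only technical. These p-values do not measure the spread between separately made lines.

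MN1 is a large transcriptional co-regulator without a known enzymatic activity, much of whose length is predicted to be unstructured, and it is thought to act through other DNA-binding proteins and coactivators. BEND2 carries BEN domains, a fold found in proteins that bind DNA or chromatin, and CXXC5 carries a CXXC zinc finger, a fold that binds DNA with unmethylated CpG dinucleotides. Fusions that join MN1 to BEND2 or to CXXC5 are known from astroblastoma, a rare tumour of the brain. The comparison asks which genes stand apart in cells with either fusion from cells with no construct, with MN1 alone or with BEND2 alone; no line with CXXC5 alone was part of the design.

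Libraries held 15.9 to 26.8 M counts (M for 1e6), and levels below are counts per 1e6 counts (CPM) scaled with TMM factors. Transcripts of the 3 genes in the constructs were highest in the lines whose labels name them. MN1 stood at 291 and 291 CPM with the BEND2 fusion, 128 and 128 with the CXXC5 fusion and 328 and 325 in MN1 cells, against 3.81 to 5.39 in the other 4 libraries. BEND2 stood at 394 and 407 CPM with the BEND2 fusion and 389.9 and 399 in BEND2 cells, and at 0.573 CPM or less elsewhere. CXXC5 stood at 55.2 and 61.9 CPM with the CXXC5 fusion, 22.9 and 21.9 with the BEND2 fusion and 8.36 to 13.6 in the lines without fusion. It was thus also higher with the BEND2 fusion, whose label does not name CXXC5 (log2 difference 0.97, edgeR adjusted p = 7.43e-08). Reads of a construct and of the cell's own gene are added together at these genes. Of 34 markers of salivary gland and squamous epithelium, 12 were tested and 2 called lower, and 6 were at 0 in every library. Their sum was 99.6 CPM in CTRL replicate 1 and 91.7 CPM in MN1 replicate 1, and 2.69 to 6.24 CPM in the other 8 libraries. Markers of HEK293 cells summed to 1088 to 1331 CPM in the lines without fusion and 1598 to 1650 CPM in the fusion lines, and 5 of 11 tested were called higher and 3 lower. VIM, PAX2 and NEFL were higher in both fusions, with NEFL at 156 to 358 CPM without fusion and 495 to 551 CPM with it. EYA1 was lower (13.2 to 16.8 CPM without fusion and 4.63 to 9.59 CPM with it). KRT8 stood at 374 and 377 CPM with MN1-BEND2 but at 105 and 117 CPM with MN1-CXXC5, against 175 to 199 CPM.

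Fusion cells differed from the other lines in both directions, with genes such as COL12A1, EMILIN2, SV2C and BDNF higher and SEMA3C, N6AMT1 and CLU lower. At an adjusted p under 0.05 (edgeR's quasi-likelihood test, Benjamini-Hochberg adjustment over all 18127 genes), 3747 genes (20.7%) were higher and 4867 (26.8%) lower. More genes were thus lower than higher, but most of these differences were small: a log2 difference of 1 or more was reached by 351 rises (1.94%) and 188 falls (1.04%). A mean of groups can be set by 1 line, so a stricter count asked that each of the 4 fusion libraries lie beyond each of the other 6. That held for 998 rises (5.51%) and 800 falls (4.41%), 9.92% of the tested genes in all, which are said below to be called without overlap. Such a separation of libraries does not measure the spread between separately made lines either. Without CTRL replicate 1 and MN1 replicate 1, which lowers the number of libraries to be passed, the counts were 1183 and 966, and 97.4% of the calls without overlap kept their call and direction.

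**Figure D1:**
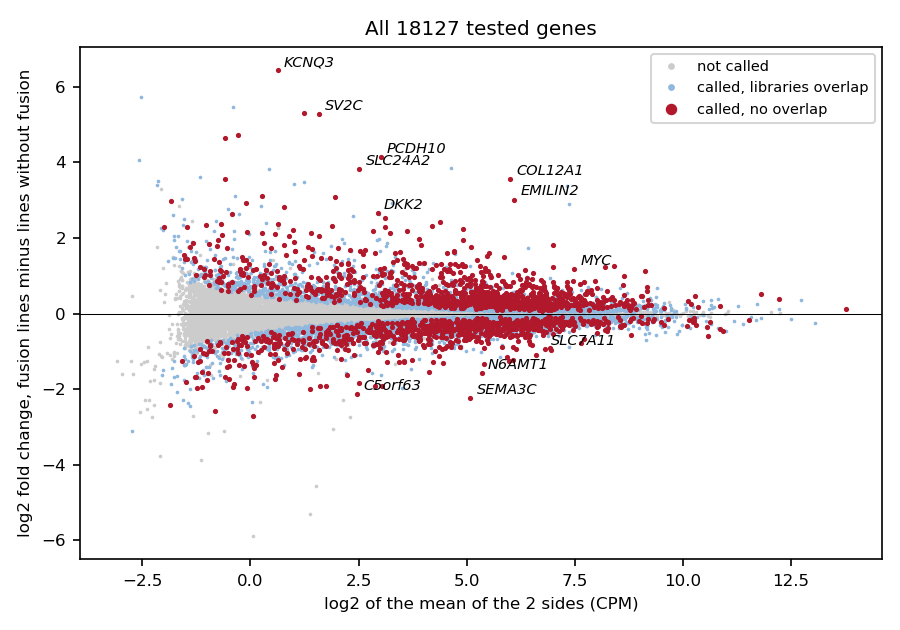
Log2 fold change of each of the 18127 tested genes, fusion lines minus lines without fusion (vertical axis), against the log2 of the mean CPM of both sides (horizontal axis); grey points are genes not called, blue points are called genes whose libraries overlap and red points are genes called without overlap. COL12A1 (3.56) and EMILIN2 (3.01) lie high at well-expressed levels, and SEMA3C (-2.23) lies lowest among the labelled genes.

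The genes named next were the 12 largest rises and 12 largest falls without overlap that reached a mean of 5 CPM on their higher side, joined by the 10 of each with the widest gap between the sides. The matrix genes COL12A1 and EMILIN2 were among the largest rises, although the list of collagen and matrix genes given further on did not lean that way. COL12A1, a collagen that coats fibrils (chromosome 6, 75084326 to 75206051; positions are those of GENCODE v29 on GRCh38), lay at 145 and 146 CPM with MN1-BEND2 and at 89 and 92.4 CPM with MN1-CXXC5, against 6.13 to 13.9 CPM (median 10.8) in the lines without fusion (log2 difference 3.56 with SE 0.038, edgeR adjusted p = 5.23e-14). The lowest fusion library was far above the highest other library. EMILIN2, a glycoprotein of the elastic matrix (chromosome 18, 2847030 to 2915993), lay at 155 and 161 CPM with MN1-BEND2 and at 83.5 and 89.3 CPM with MN1-CXXC5. Lines without fusion spanned 10.3 to 19.6 CPM (median 15.6) (log2 difference 3.01 with SE 0.039, edgeR adjusted p = 2.7e-13). In both genes the MN1 line was the lowest of the lines without fusion and MN1-BEND2 the higher of the fusion lines.

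DKK2, BDNF and NOG, which encode secreted proteins, rose as well. DKK2, a modulator of WNT signalling (chromosome 4, 106921802 to 107283806), lay at 13.8 and 15.6 CPM with MN1-BEND2 and at 11.4 and 12.2 CPM with MN1-CXXC5. The other 6 libraries held 1.56 to 3.05 CPM (median 2.08) (log2 difference 2.65 with SE 0.1, edgeR adjusted p = 2.21e-09). BDNF, the brain-derived neurotrophic factor (chromosome 11, 27654893 to 27722058), lay at 15.1 and 12.1 CPM with MN1-BEND2 and at 13.9 and 16.5 CPM with MN1-CXXC5. Levels without fusion were 2.62 to 3.53 CPM (median 2.86) (log2 difference 2.28 with SE 0.094, edgeR adjusted p = 3.23e-09). In DKK2 and BDNF the fusions were not called different from each other (MN1-BEND2 minus MN1-CXXC5 0.32, SE 0.14, and -0.16, SE 0.13; edgeR adjusted p = 0.0605 and 0.313). NOG, a secreted inhibitor of BMP ligands, lay at 17.3 and 18.6 CPM with MN1-BEND2 and at 13 and 12.6 CPM with MN1-CXXC5. Values without fusion spanned 2.36 to 4.25 CPM (median 3.52) (log2 difference 2.13 with SE 0.092, edgeR adjusted p = 4.81e-09). BDNF shares exonic sequence with its antisense gene BDNF-AS. A strand setting for the counting is not given in the sources used here, so reads of the pair cannot be told apart. The same holds for SV2C, PGR, SPHK1, OSTN, PRSS23, NEK8 and ACAT1 below, each of which overlaps an exon of a gene on the other strand. It holds for other genes named in this text too, among them CXXC5, JUNB, CHEK2, LOX, SLC7A11, DDIT4, ID2, IDI1, GAPDH, SYP, SCN9A, NGFR, TNC, RFX2, EEF1D and IFNGR2. Some, such as HOXC6, ETV5 and PGK1, overlap exons of genes on the same strand.

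Among the rises that reached 5 CPM, the 3 largest were those of SV2C, PCDH10 and SLC24A2, each from a low level in the lines without fusion. SV2C, a synaptic vesicle glycoprotein (chromosome 5, 76083172 to 76353939), lay at 5.76 and 6.7 CPM with MN1-BEND2 and at 5.39 and 5.39 CPM with MN1-CXXC5, against 0.0428 to 0.25 CPM (median 0.16), which is 1 to 6 counts a library (log2 difference 5.27 with SE 0.19, edgeR adjusted p = 1.14e-09). The difference between the fusions at SV2C was 0.21 (SE 0.18) and was not called (edgeR adjusted p = 0.327). PCDH10, a protocadherin of neural cells (chromosome 4, 133149315 to 133208606), lay at 24.3 and 26.1 CPM with MN1-BEND2 and at 5.8 and 5.33 CPM with MN1-CXXC5. The 6 remaining libraries held 0.385 to 1.34 CPM (median 0.621) (log2 difference 4.13 with SE 0.15, edgeR adjusted p = 1.04e-09). SLC24A2, an exchanger of sodium for calcium and potassium (chromosome 9, 19507452 to 19786928), lay at 4.44 and 3.9 CPM with MN1-BEND2 and at 17.9 and 17 CPM with MN1-CXXC5. The lines without fusion held 0.279 to 0.936 CPM (median 0.607) (log2 difference 3.83 with SE 0.13, edgeR adjusted p = 8.93e-10). PCDH10 and SLC24A2 were both clear of the other lines in each fusion, yet in opposite order: PCDH10 was higher in MN1-BEND2 cells and SLC24A2 in MN1-CXXC5 cells. SLITRK5, a transmembrane protein of neurons, was the tenth of these rises by size. It lay at 5.76 and 6.78 CPM with MN1-BEND2 and at 5.68 and 6.14 CPM with MN1-CXXC5. In the other lines levels were 0.749 to 1.92 CPM (median 1.12) (log2 difference 2.33 with SE 0.12, edgeR adjusted p = 2.65e-08).

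The remaining large rises were receptors, an enzyme, a sarcomere gene and a transcription factor. PGR, the progesterone receptor (chromosome 11, 101029624 to 101130524), lay at 8.72 and 8.08 CPM with MN1-BEND2 and at 5.56 and 4.99 CPM with MN1-CXXC5. Lines without fusion spanned 0.334 to 1.87 CPM (median 0.736) (log2 difference 3.08 with SE 0.13, edgeR adjusted p = 4.26e-09). GHR, the growth hormone receptor, lay at 26.1 and 27 CPM with MN1-BEND2 and at 4.2 and 3.96 CPM with MN1-CXXC5. The other 6 libraries held 0.99 to 2.2 CPM (median 2.06) (log2 difference 2.53 with SE 0.12, edgeR adjusted p = 7.87e-09). The GHR rise was mostly that of MN1-BEND2 cells, although the MN1-CXXC5 libraries were still above the other lines. SPHK1, a kinase that makes sphingosine 1-phosphate, lay at 50.7 and 50.8 CPM with MN1-BEND2 and at 11.5 and 13.3 CPM with MN1-CXXC5. Levels without fusion were 4.51 to 5.99 CPM (median 4.83) (log2 difference 2.32 with SE 0.058, edgeR adjusted p = 6.73e-11). MYOM2, a protein of the sarcomere M band, lay at 48.5 and 22.8 CPM with MN1-BEND2 and at 35.5 and 34.2 CPM with MN1-CXXC5, against 4.92 to 8.94 CPM (median 6.17) (log2 difference 2.43 with SE 0.19, edgeR adjusted p = 9.2e-07), and its 2 MN1-BEND2 libraries were far apart. NR4A3, an orphan nuclear receptor induced early after stimulation, lay at 12.8 and 11.9 CPM with MN1-BEND2 and at 11.5 and 10.8 CPM with MN1-CXXC5. Values without fusion spanned 1.75 to 3.68 CPM (median 2.57) (log2 difference 2.18 with SE 0.099, edgeR adjusted p = 7.14e-09).

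The largest falls were smaller than the largest rises. SEMA3C, a secreted guidance factor (chromosome 7, 80742538 to 80922359), lay at 11.9 and 14.8 CPM with MN1-BEND2 and at 10.00 and 9.8 CPM with MN1-CXXC5. The 6 remaining libraries held 43.4 to 80.7 CPM (median 46.8) (log2 difference -2.23 with SE 0.049, edgeR adjusted p = 2.63e-11). Its level was 80.7 and 77 CPM in MN1 cells and 43.4 to 46.8 CPM in CTRL and BEND2 cells, so that all 3 lines were well above the fusions. N6AMT1, a methyltransferase that modifies a translation termination factor (chromosome 21, 28872191 to 28885371), lay at 21.6 and 20.6 CPM with MN1-BEND2 and at 20.2 and 19.3 CPM with MN1-CXXC5. The lines without fusion held 53.8 to 70.4 CPM (median 59.4) (log2 difference -1.57 with SE 0.029, edgeR adjusted p = 6.88e-12). C5orf63 lay at 1.69 and 1.46 CPM with MN1-BEND2 and at 2.6 and 2.52 CPM with MN1-CXXC5. In the other lines levels were 6.91 to 10.8 CPM (median 8.62) (log2 difference -2.14 with SE 0.09, edgeR adjusted p = 3.99e-09). SYTL5, a synaptotagmin-like protein of vesicle traffic, lay at 25 and 25.7 CPM with MN1-BEND2 and at 22 and 23.4 CPM with MN1-CXXC5. Lines without fusion spanned 48.4 to 71.9 CPM (median 63.8) (log2 difference -1.33 with SE 0.032, edgeR adjusted p = 4.94e-11). At N6AMT1 and SYTL5 the lines without fusion lay closer to one another than to either fusion.

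Enzymes, a chaperone and a protein of the cytoskeleton fell too. ACAT1, a mitochondrial enzyme of ketone and isoleucine breakdown, lay at 33.3 and 38.8 CPM with MN1-BEND2 and at 38.1 and 38.8 CPM with MN1-CXXC5. The other 6 libraries held 81.5 to 95.2 CPM (median 89.7) (log2 difference -1.25 with SE 0.038, edgeR adjusted p = 2.97e-10). CLU, the secreted chaperone clusterin, lay at 37.1 and 42.2 CPM with MN1-BEND2 and at 35 and 36.6 CPM with MN1-CXXC5. Levels without fusion were 73.4 to 97.8 CPM (median 82.2) (log2 difference -1.15 with SE 0.048, edgeR adjusted p = 3.4e-09). PRSS23, a serine protease, lay at 9.83 and 10.8 CPM with MN1-BEND2 and at 15.9 and 14.4 CPM with MN1-CXXC5. Values without fusion spanned 27.5 to 34.3 CPM (median 31.5) (log2 difference -1.31 with SE 0.049, edgeR adjusted p = 1.52e-09). MAP2, a microtubule-associated protein of neurons, stood at a log2 difference of -1.49 (SE 0.12, edgeR adjusted p = 7.65e-07). For LIPH, a lipase, it was -1.62, and for CDHR1, a cadherin-related protein of photoreceptors, -0.99. In MAP2, LIPH, ACAT1 and CLU the fusions were not called different from each other (edgeR adjusted p = 0.228, 0.254, 0.286 and 0.121).

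The lines without fusion were themselves unequal: 7888 genes (43.5%) were called different among CTRL, MN1 and BEND2 cells. At OSTN, AMBN, NEK8 and RASSF9, as at SEMA3C, the MN1 line was the highest, and the size of the fall depended on it. OSTN, the secreted peptide osteocrin, lay at 25.1 and 25 CPM in MN1 cells and at 5.88 and 8.13 in CTRL, 7.7 and 8.3 in BEND2, 2.06 and 2.28 with MN1-BEND2 and 4.08 and 3.96 with MN1-CXXC5 (log2 difference -1.92 with SE 0.1, edgeR adjusted p = 2.42e-08). AMBN, an enamel matrix protein, lay at 20.6 and 21.3 CPM in MN1 cells, 5.52 and 5.26 in CTRL, 9.6 and 8.99 in BEND2, 3.59 and 3.37 with MN1-BEND2 and 2.25 and 1.95 with MN1-CXXC5 (log2 difference -1.91 with SE 0.078, edgeR adjusted p = 3.12e-09). NEK8, a kinase of primary cilia, and RASSF9 were likewise highest in MN1 cells (32.4 and 36.8 and 21 and 21.9 CPM). Measured against CTRL alone, the falls were -1.25 for OSTN, -0.99 for AMBN, -0.64 for NEK8 and -0.86 for RASSF9 and stayed called, compared with -1.92, -1.91, -1.29 and -1.29 against the 3 lines.

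INHBE, the gene of an inhibin and activin subunit, showed the opposite order. It lay at 46.4 and 46.8 CPM in CTRL and 27.5 and 24.5 in BEND2 cells, at 9.81 and 9.64 in MN1 cells, and at 7.61 and 7.88 and 7.81 and 7.63 in the fusion lines. The fall was -1.56 (SE 0.053, edgeR adjusted p = 7.16e-10) against the 3 lines but -0.33 (edgeR adjusted p = 0.00424) against MN1 alone. TXNIP, an arrestin that restrains glucose uptake, fell by 0.66 on the log2 scale in the comparison (edgeR adjusted p = 3.32e-09), yet stood above MN1 cells (34.1 and 35.4 CPM with MN1-BEND2 and 35.1 and 35.1 with MN1-CXXC5, 21.2 and 20.3 in MN1 cells, 112 and 112 in CTRL and 72.9 and 72.4 in BEND2; against MN1 0.75, edgeR adjusted p = 6.04e-08). Against MN1 cells alone the fusion mean was higher in 3729 genes (20.6%) and lower in 4496 (24.8%).

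The fusions also differed from each other. Between MN1-BEND2 and MN1-CXXC5 cells 10624 genes (58.6%) were called different. With offsets for GC content and length the number was 8283. Taken singly against the 6 other libraries, MN1-BEND2 had 4707 genes (26.0%) called higher and 4523 (25.0%) lower, and MN1-CXXC5 4294 (23.7%) and 4729 (26.1%). Both fusions were called on opposite sides of those libraries in 2933 of the 18127 tested genes, with MN1-BEND2 the higher in 1536. Of the 8614 genes called in the comparison (47.5%), 2857 had 1 fusion estimated above and the other below that mean. Among calls without overlap the fusions were called different in 537 of 998 rises (53.8%) and 388 of 800 falls (48.5%). MN1-BEND2 was estimated further from the other lines in 140 of the 184 rises without overlap of at least 1 on the log2 scale (76.1%). It was further in 44 of the 85 falls of that size (51.8%). The share over all tested genes was 49.9%, so only the rises stood apart from it. Of those 184 rises, 75 (40.8%) had a mean under 1 CPM in the lines without fusion, against 16.5% of all tested genes.

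**Figure D2:**
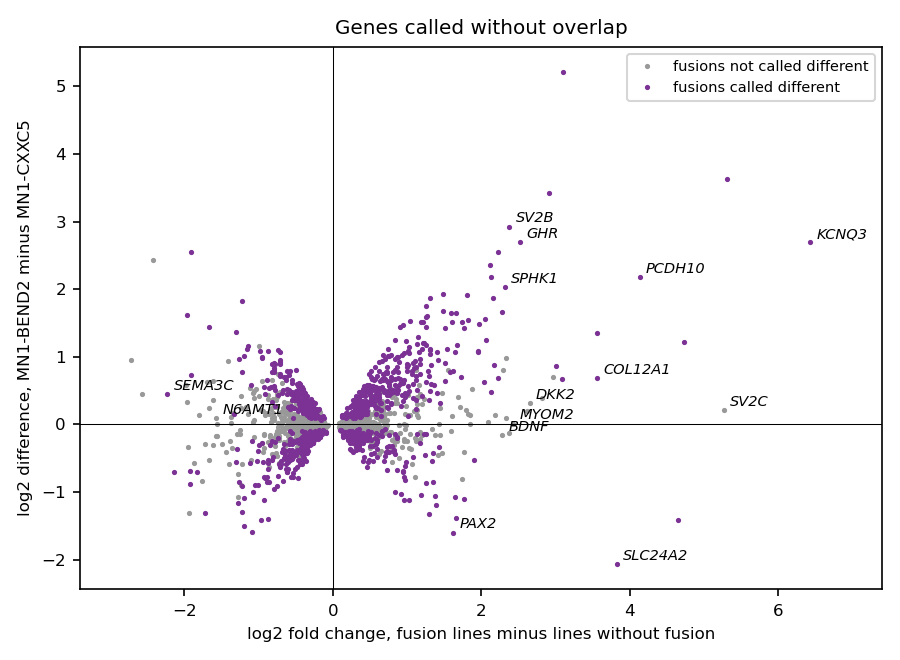
Log2 difference between the fusions, MN1-BEND2 minus MN1-CXXC5 (vertical axis), against the log2 fold change of the fusion lines minus the lines without fusion (horizontal axis), for the 1798 genes called without overlap; purple points are genes at which the fusions were called different. SV2C, DKK2, MYOM2 and BDNF lie near 0 on the vertical axis, PCDH10, GHR and SPHK1 lie above 2 and SLC24A2 lies below -2.

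Some named calls belonged to 1 fusion. ADRA2A, an adrenergic receptor, lay at 100.0 and 93.6 CPM with MN1-BEND2 and at 0.888 and 1.09 CPM with MN1-CXXC5, against 0.312 to 1.28 CPM (median 0.646); the comparison's value of 3.85 is the mean of 7.15 and 0.55. CHEK2, a DNA damage checkpoint kinase, lay at 10.9 and 11.3 CPM with MN1-BEND2 and at 51.9 and 50.6 CPM with MN1-CXXC5, against 44.9 to 52.2 CPM (median 49.2), and its value of -1.03 joins -2.13 and 0.072. MND1, a protein of meiotic recombination, had the same order (-2.05 for MN1-BEND2 and -0.043 for MN1-CXXC5). In the other direction, IDI1, an isomerase of sterol synthesis, lay at 142 and 146 CPM with MN1-BEND2 and at 448 and 437 CPM with MN1-CXXC5, against 122 to 177 CPM (median 167) (-0.10 and 1.52). KRT19, a keratin, was lower in MN1-CXXC5 cells (-1.58) and higher in MN1-BEND2 cells (0.23). EEF1D and IFNGR2 were among the 5 largest falls of genes with no called difference between the fusions, but their libraries overlapped and single libraries were high: EEF1D lay at 32.5 CPM in MN1 replicate 2 and 20.02 in BEND2 replicate 1, against 2.48 to 5.99 elsewhere, and IFNGR2 at 34.6 CPM in MN1 replicate 1, against 1.20 to 9.64. Without MN1 replicate 2, the EEF1D value moved from -1.62 (edgeR adjusted p = 0.0252) to -1.01 (edgeR adjusted p = 0.0602). Its call also ended without CTRL replicate 2, BEND2 replicate 1, MN1-BEND2 replicate 2 or MN1-CXXC5 replicate 2.

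Promoters were read to see what the genes called without overlap share beyond RNA level. The RefSeq promoter table (GRCh38.p14) held 11500 of the tested genes, and the 250 bases before the most upstream start of each were used. Among all calls without overlap, 697 rises and 561 falls had an entry, and their median count of CG dinucleotides was 23 and 19, against 21 in all tested genes with an entry. Fewer than 10 such dinucleotides were found in 11.9% of these rises, 21.4% of these falls and 17.5% of the tested genes, so that over the whole set the falls lay close to the tested genes. A low count was a feature of the largest falls. Of the 184 rises and 85 falls of at least 1 on the log2 scale, 117 and 42 had an entry; their medians were 23 and 6, and 18.8% and 59.5% held fewer than 10. With every listed start counted the medians of these large rises, large falls and the tested genes were 18.5, 5.5 and 20. Among genes with at least 5 CPM on their higher side they were 24, 6 and 21, but only 79 rises and 19 falls remained there, beside 9039 tested genes. CG content came to be described after these counts and 4 motifs had been seen, and no test was made of it.

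Promoters of 3 of the largest rises and 3 of the largest falls are shown so that the CG content of single windows can be read; capitals mark each CG dinucleotide. They are the first 3 of each ranking by fold change that have an entry and do not overlap an exon of GENCODE v29, a condition added after the sequences had been seen. All run 5′ to 3′ on the gene's strand, ending at the base before the RefSeq start (for SLC24A2 a start upstream of the GENCODE v29 gene).
SLC24A2 (chr9:19789038-19789287, minus strand): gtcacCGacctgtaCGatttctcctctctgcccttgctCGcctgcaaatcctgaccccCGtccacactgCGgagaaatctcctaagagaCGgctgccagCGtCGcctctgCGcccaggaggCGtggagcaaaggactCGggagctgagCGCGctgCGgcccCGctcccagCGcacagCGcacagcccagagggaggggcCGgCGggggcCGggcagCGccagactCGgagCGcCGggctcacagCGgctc
COL12A1 (chr6:75206054-75206303, minus strand): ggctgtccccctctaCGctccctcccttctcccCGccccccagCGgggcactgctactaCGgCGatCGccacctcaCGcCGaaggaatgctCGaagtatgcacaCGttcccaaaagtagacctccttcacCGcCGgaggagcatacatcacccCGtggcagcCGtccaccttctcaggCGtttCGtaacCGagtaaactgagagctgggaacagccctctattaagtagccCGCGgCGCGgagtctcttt
EMILIN2 (chr18:2846756-2847005, plus strand): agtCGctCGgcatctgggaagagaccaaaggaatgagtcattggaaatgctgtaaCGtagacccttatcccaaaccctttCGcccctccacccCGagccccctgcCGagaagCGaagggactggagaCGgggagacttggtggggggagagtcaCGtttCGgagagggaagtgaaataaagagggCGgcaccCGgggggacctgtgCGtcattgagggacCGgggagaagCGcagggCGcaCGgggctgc
SEMA3C (chr7:80922390-80922639, minus strand): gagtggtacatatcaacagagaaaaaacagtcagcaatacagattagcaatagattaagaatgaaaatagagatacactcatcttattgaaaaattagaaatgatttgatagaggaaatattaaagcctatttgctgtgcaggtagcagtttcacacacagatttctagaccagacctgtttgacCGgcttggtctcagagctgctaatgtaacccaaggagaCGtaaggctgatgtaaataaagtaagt
OSTN (chr3:191198991-191199240, plus strand): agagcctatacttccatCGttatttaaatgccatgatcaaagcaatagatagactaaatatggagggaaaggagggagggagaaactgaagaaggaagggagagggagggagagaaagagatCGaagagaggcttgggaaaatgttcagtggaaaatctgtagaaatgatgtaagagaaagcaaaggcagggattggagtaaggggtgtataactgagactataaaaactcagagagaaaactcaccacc
AMBN (chr4:70592006-70592255, plus strand): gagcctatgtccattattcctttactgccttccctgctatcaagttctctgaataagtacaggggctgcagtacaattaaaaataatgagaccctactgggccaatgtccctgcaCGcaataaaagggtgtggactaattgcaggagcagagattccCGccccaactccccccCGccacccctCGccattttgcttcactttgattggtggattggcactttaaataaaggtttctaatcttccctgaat

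SLC24A2, COL12A1 and EMILIN2 held 25, 21 and 17 CG dinucleotides in these windows, and SEMA3C, OSTN and AMBN 2, 2 and 4. The condition on exons passed over SV2C (30) and PGR (5) among the rises and C5orf63 (17) among the falls, all ranked ahead of a gene that is shown, so the printed windows do not show the spread within either direction. PGR had few for a rise, as did GHR (7), and C5orf63 did not share the low content of SEMA3C, OSTN and AMBN. Neither did NEK8 (29), ACAT1 (23) and CDHR1 (13). The falls LIPH (3), MAP2 (6), SYTL5 (0), PRSS23 (2) and RASSF9 (5) had few.

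**Figure D3:**
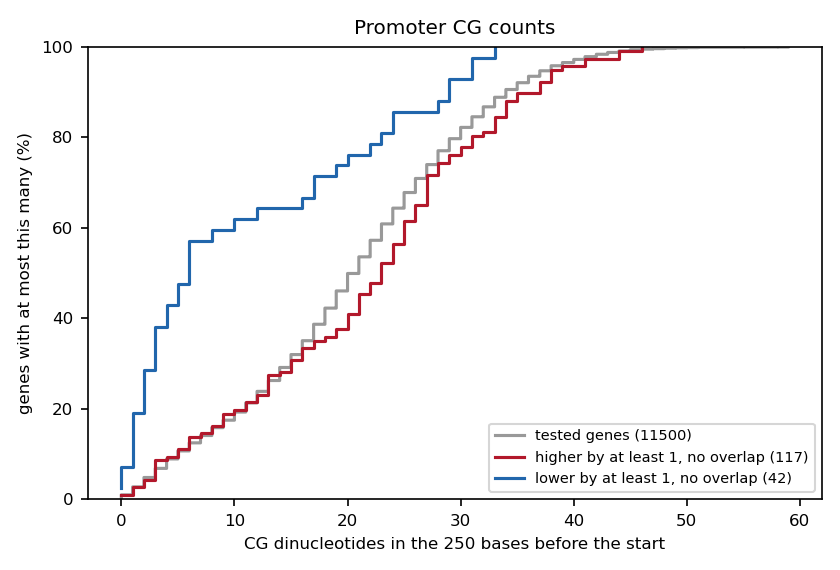
Share of genes (vertical axis, percent) with at most the given number of CG dinucleotides in the 250 bases before the start (horizontal axis), for 117 rises and 42 falls without overlap of at least 1 on the log2 scale and for 11500 tested genes. The line of the rises lies close to that of the tested genes, with medians of 23 and 21, and the line of the falls lies to the left, with a median of 6.

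Of 4 motifs searched on both strands of these windows, none was common. TGACGTCA, the cyclic AMP response element, was in 2.30% of the 697 rises without overlap, 3.57% of the 561 falls and 2.70% of the tested genes. TGANTCA, the AP-1 element, was in 2.73% of the rises, 4.81% of the falls and 4.01% of tested genes. TGATGNAA, an element bound by ATF4 dimers, was in 0.861%, 2.50% and 1.43%, and in 4 of 25 ATF4 target genes with an entry. CCGGAAGT, an ETS element, was in 4.59%, 5.17% and 6.55%. In the 117 large rises the 4 motifs, in this order, were found in 0, 1, 1 and 1 genes, and in the 42 large falls in 0, 5, 3 and 1, numbers too small to set against the tested genes. The first 3 motifs resemble one another without any containing another. A match is only a match of letters in this window.

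The next results take 26 gene lists, all 924 of whose members were found in the table. Counts of members called are to be read against 20.7% higher and 26.8% lower of all tested genes, whose median log2 fold change was -0.03. Counts of members called without overlap are to be read against 5.51% higher and 4.41% lower. Members of a list were not all tested, and the median for each fusion uses the same 6 libraries as reference.

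Genes induced by growth factor signalling were more often higher than lower. Of 19 tested MAPK feedback genes, which the ERK pathway switches on and many of which restrain it, 13 rose and 2 fell, 9 of the rises without overlap (median 0.58). DUSP4, a phosphatase of MAP kinases, lay at 36.2 and 34.9 CPM with MN1-BEND2 and at 32.5 and 32.9 CPM with MN1-CXXC5. The 6 remaining libraries held 5.41 to 16.7 CPM (median 14.8) (log2 difference 1.61 with SE 0.046, edgeR adjusted p = 1.68e-10). ETV5, an ETS transcription factor, lay at 63.8 and 61.6 CPM with MN1-BEND2 and at 45.6 and 45.5 CPM with MN1-CXXC5. The lines without fusion held 12 to 25.9 CPM (median 24.7) (log2 difference 1.41 with SE 0.033, edgeR adjusted p = 3.87e-11). The phosphatase gene DUSP1 rose by 0.79 and the cyclin gene CCND1 by 0.70, again with the fusions above all other libraries. For DUSP4, ETV5 and DUSP1 the MN1 line was the lowest of all.

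Immediate early genes, transcription factors and regulators induced within minutes of a stimulus, rose in 15 of 24 and fell in 4, 6 of the rises without overlap (median 0.35). MYC, a transcription factor of growth, lay at 328 and 325 CPM with MN1-BEND2 and at 175 and 174 CPM with MN1-CXXC5. In the other lines levels were 91.5 to 123 CPM (median 105) (log2 difference 1.18 with SE 0.019, edgeR adjusted p = 2.14e-12). JUNB, a subunit of AP-1, lay at 54.7 and 52.8 CPM with MN1-BEND2 and at 9.29 and 9.46 CPM with MN1-CXXC5, against 9.2 to 13 CPM (median 11.2), so its rise of 1.02 came from MN1-BEND2 cells (2.28, against -0.24 in MN1-CXXC5 cells). IER5 showed the same split (2.10 and -0.23). The list median was 0.61 for MN1-BEND2 and 0.04 for MN1-CXXC5, and with CTRL and BEND2 as the only reference the comparison's median was 0.08.

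Targets of ATF4, the transcription factor of the integrated stress response, mostly fell: 26 of 32 were lower and 2 higher, 6 of the falls without overlap (median -0.39). SLC7A11, the cystine transporter, lay at 63.3 and 61.5 CPM with MN1-BEND2 and at 92.2 and 90.6 CPM with MN1-CXXC5. Lines without fusion spanned 119 to 187 CPM (median 137) (log2 difference -0.94 with SE 0.023, edgeR adjusted p = 5.92e-11). PHGDH, the first enzyme of serine synthesis, lay at 247 and 251 CPM with MN1-BEND2 and at 216 and 216 CPM with MN1-CXXC5. The other 6 libraries held 261 to 332 CPM (median 291) (log2 difference -0.34 with SE 0.018, edgeR adjusted p = 3.17e-08). DDIT4, an inhibitor of mTORC1, lay at 48.5 and 52.5 CPM with MN1-BEND2 and at 17 and 21.3 CPM with MN1-CXXC5, against 42.6 to 99.7 CPM (median 80.8), and its libraries overlapped those of MN1 cells (42.6 and 43.9 CPM). The reference mattered for the list: against MN1 alone 10 members were higher and 16 lower, and against CTRL alone the median was -0.62. The arrestin and glucocorticoid-type genes, many of which report glucose or steroid signalling, were called higher in 6 and lower in 9 of 17 (median -0.13, and 0.01 with offsets for GC content and length). ARRDC4, an arrestin, lay at 66.3 and 63.9 CPM in MN1 cells, 105 and 104 and 141 and 139 in the fusions, and 333 and 326 in CTRL and 225 and 223 in BEND2 cells.

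**Figure D4:**
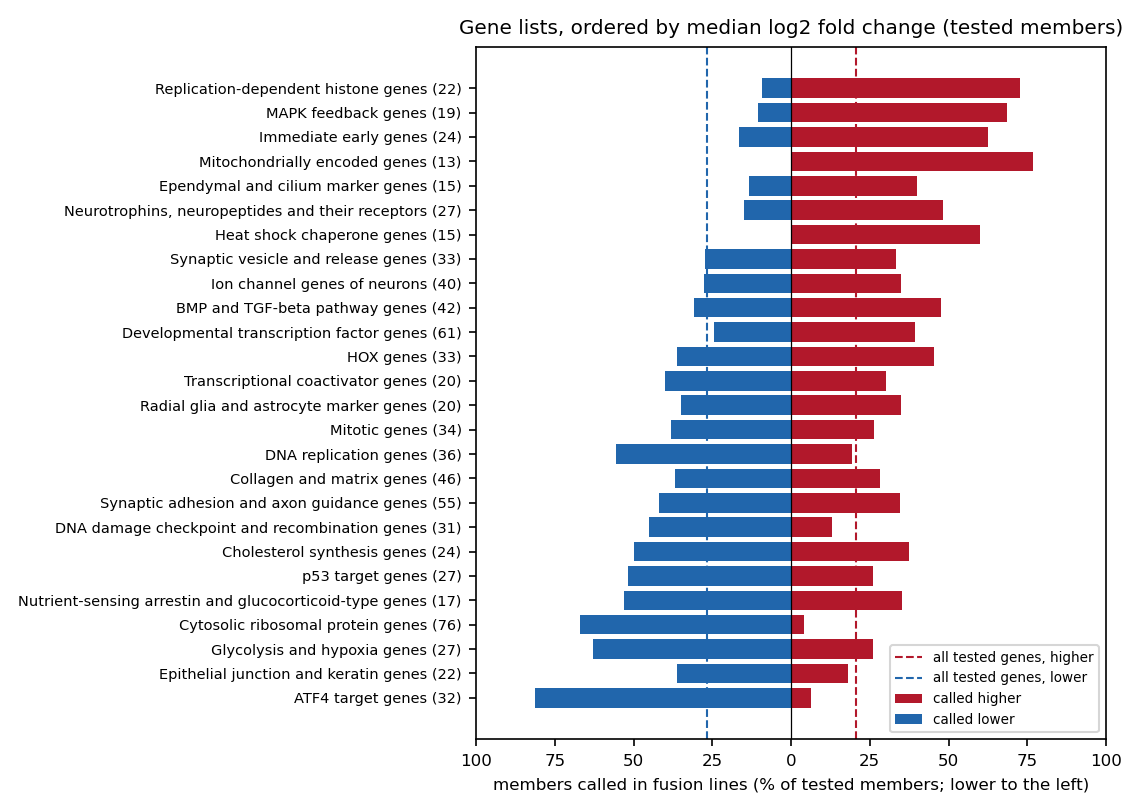
Share of tested members called higher (red, to the right) and lower (blue, to the left) in fusion lines for each of 26 gene lists, ordered by median log2 fold change, with the number tested in brackets; dashed lines give 20.7% higher and 26.8% lower of all tested genes. Histone, MAPK feedback, immediate early and mitochondrially encoded genes extend furthest to the right, and ATF4 target, ribosomal protein and glycolysis genes furthest to the left.

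Metabolic genes changed in both directions. Glycolysis and hypoxia genes fell in 17 of 27 and rose in 7 (median -0.20). GAPDH, a glycolytic enzyme, lay at 1348 and 1329 CPM with MN1-BEND2 and at 1126 and 1102 CPM with MN1-CXXC5, against 1666 to 2155 CPM (median 1758) (log2 difference -0.60 with SE 0.02, edgeR adjusted p = 6.47e-10), while SLC2A3, a glucose transporter, rose by 0.84 and the hexokinase gene HK1 by 0.39, both without overlap. The SLC2A3 rise was mostly that of MN1-CXXC5 cells: its MN1-BEND2 libraries lay barely above the highest CTRL library, and MN1 cells were the lowest line. PGK1, another glycolytic enzyme, lay at 686 and 679 CPM with MN1-BEND2 and at 719.6 and 731 CPM with MN1-CXXC5, close to the 728 and 719 CPM of MN1 cells and under the 1034 and 1028 of CTRL. In cholesterol synthesis 9 of 24 genes rose and 12 fell (median -0.09). INSIG1 and HMGCS1, a regulator and an enzyme of the pathway, rose by 0.52 and 0.44 without overlap, and SQLE, another enzyme, rose by 0.35 with libraries that overlapped those of MN1. The cholesterol list is set by its reference: against MN1 alone 3 members were higher and 18 lower, and against CTRL alone the median was 0.15.

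Replication-dependent histone genes, which are expressed in S phase and whose RNA mostly lacks a poly(A) tail, were higher in 16 of 22 and lower in 2, 4 of the rises without overlap (median 0.82). Both falls lost their call without CTRL replicate 1 and MN1 replicate 1. The linker histone gene HIST1H1C lay at 59.2 and 59.1 CPM with MN1-BEND2 and at 26.4 and 28.7 CPM with MN1-CXXC5. Levels without fusion were 13.2 to 19.4 CPM (median 16.4) (log2 difference 1.31 with SE 0.041, edgeR adjusted p = 3.62e-10). HIST1H2BK lay at 141 and 135 CPM with MN1-BEND2 and at 50.4 and 47.6 CPM with MN1-CXXC5, against 52 to 55.7 CPM (median 54), so that its rise was one of MN1-BEND2 cells (1.36, against -0.14). The list's median was 1.35 for MN1-BEND2 and 0.06 for MN1-CXXC5, and 0.46 against CTRL alone. Histone genes have near-identical copies, and how such reads were counted is not given in the sources used here.

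Genes of DNA replication fell in 20 of 36 and rose in 7 (median -0.07). UHRF1, which maintains DNA methylation, fell by 0.48 on the log2 scale and E2F1, a transcription factor of S phase, by 0.44, whereas RRM2, a subunit of ribonucleotide reductase, lay at 283 and 292 CPM with MN1-BEND2 and at 213 and 203 CPM with MN1-CXXC5. Values without fusion spanned 123 to 156 CPM (median 149.7) (log2 difference 0.78 with SE 0.023, edgeR adjusted p = 2.4e-10). Mitotic genes split into 9 higher and 13 lower of 34 (median -0.02), with BUB1 at 0.36 and UBE2C at -0.33. The BUB1 rise was mostly that of MN1-BEND2 cells, with MN1-CXXC5 cells level with MN1 cells. UBE2C was low in MN1-CXXC5 cells, while MN1-BEND2 cells lay within the range of the lines without fusion. Checkpoint and recombination genes fell in 14 of 31 and rose in 4 (median -0.09), with the kinase gene ATM at -0.72 for MN1-BEND2 and 0.22 for MN1-CXXC5. Targets of p53 rose in 7 and fell in 14 of 27 (median -0.12), and against MN1 alone 13 were higher and 4 lower. FAS, a death receptor, rose by 0.42 without overlap and CCNG1, a cyclin, fell by 0.24 on the log2 scale with overlap.

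Cytosolic ribosomal protein genes fell by small amounts, 51 of 76 lower and 3 higher, 21 of the falls without overlap (median -0.15). RPLP0 lay at 1861 and 1830.0 CPM with MN1-BEND2 and at 1473 and 1449 CPM with MN1-CXXC5. The 6 remaining libraries held 2186 to 2322 CPM (median 2235) (log2 difference -0.45 with SE 0.017, edgeR adjusted p = 1.28e-09). RPL13 and RPL36 were low in MN1-CXXC5 cells (-1.10 and -1.14) and not in MN1-BEND2 cells (0.012 and 0.076). Fold changes followed GC content in opposite ways in the fusions: in the fifth of tested genes with the highest GC content the median was 0.17 for MN1-BEND2 and -0.47 for MN1-CXXC5, and in the fifth with the lowest it was -0.16 and 0.13, while the comparison's own medians there were -0.16 and -0.01. The part of this trend in the ribosomal and histone values was not tested gene by gene; with offsets for GC content and length neither list's median moved beyond the spread between replicates. Of 13 genes of the mitochondrial genome 10 rose and 0 fell by edgeR (median 0.31; 0 lower at an unadjusted p under 0.05, and 0 by DESeq2), such as MT-ND1 at 0.45 and MT-CO1 at 0.13. Heat shock chaperone genes rose in 9 of 15 and fell in 0 by edgeR (median 0.18; 1 lower at an unadjusted p under 0.05, 0 by DESeq2, and 1 called lower by edgeR without CTRL replicate 1 and MN1 replicate 1), such as HSPH1 at 0.41 and STIP1 at 0.18, both without overlap.

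Genes of neurons moved in both directions. Of 33 tested synaptic vesicle and release genes, 11 rose and 9 fell, and of 40 ion channel genes 14 rose and 11 fell. Beside SV2C, its relative SV2B lay at 4.86 and 4.96 CPM with MN1-BEND2 and at 0.651 and 0.631 CPM with MN1-CXXC5, against 0.161 to 0.513 CPM (median 0.373), while the third relative SV2A fell (-0.28, edgeR adjusted p = 3.85e-06). SYP, the vesicle protein synaptophysin, fell by 0.79 on the log2 scale, but its libraries overlapped. MN1-CXXC5 cells lay above MN1 cells at SYP, and only MN1-BEND2 cells were below every line without fusion. KCNQ3, a potassium channel subunit, summed to 258 counts over the fusion lines and to 4 over the lines without fusion, with 0 in both MN1 libraries, and lay at 5.44 and 5.16 CPM with MN1-BEND2 and at 0.77 and 0.86 CPM with MN1-CXXC5. The log2 difference of KCNQ3 was 5.46 to 7.21 over 20 alternatives. Its mean did not reach the 5 CPM asked of the largest rises named above. SCN9A, a sodium channel, fell by 1.23 on the log2 scale. CACNA2D1, an auxiliary calcium channel subunit, fell by 0.58.

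Adhesion and axon guidance genes were higher in 19 and lower in 23 of 55. ROBO3, a guidance receptor, lay at 35.2 and 37.7 CPM with MN1-BEND2 and at 12.5 and 12.6 CPM with MN1-CXXC5, against 5.09 to 7.11 CPM (median 6.37) (log2 difference 1.82 with SE 0.055, edgeR adjusted p = 2.72e-10), and EFNB2, an ephrin, rose by 0.70. PCDH9, a protocadherin, lay at 27.6 and 30.02 CPM with MN1-BEND2 and at 54.2 and 54.6 CPM with MN1-CXXC5, against 81.1 to 109 CPM (median 90.4) (log2 difference -1.23 with SE 0.03, edgeR adjusted p = 5.49e-11), the reverse of PCDH10. Neurotrophins, neuropeptides and their receptors rose in 13 and fell in 4 of 27, with a median of 0.99 for MN1-BEND2 and -0.38 for MN1-CXXC5. NGFR, a neurotrophin receptor, lay at 22.6 and 23.3 CPM with MN1-BEND2 and at 3.02 and 3.9 CPM with MN1-CXXC5, against 0.91 to 3.75 CPM (median 2.87). NTS, the neuropeptide neurotensin, fell by 1.98 on the log2 scale against the 3 lines, of which MN1 cells stood at 49.5 and 47.9 CPM and CTRL cells at 4.01 and 3.81; against CTRL alone the value was -0.49.

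Among patterning genes, HOX genes rose in 15 and fell in 12 of 33. HOXB5 and HOXC6 rose by 1.10 and 0.81, HOXD8 lay at 9.67 and 9.22 CPM with MN1-BEND2 and at 4.68 and 4.93 CPM with MN1-CXXC5, against 14.7 to 18.8 CPM (median 15.4) (log2 difference -1.26 with SE 0.054, edgeR adjusted p = 4.62e-09), and HOXA13 was raised in MN1-CXXC5 cells (0.92, against -0.024 in MN1-BEND2 cells). Developmental transcription factor genes rose in 24 and fell in 15 of 61, 10 of the rises and 5 of the falls without overlap. POU4F1, a factor of sensory neurons, lay at 62.3 and 63.9 CPM with MN1-BEND2 and at 54.9 and 53.4 CPM with MN1-CXXC5. The lines without fusion held 20.8 to 33.3 CPM (median 28.7) (log2 difference 1.12 with SE 0.034, edgeR adjusted p = 2.93e-10). PAX2, a factor of kidney and hindbrain, lay at 8.3 and 8.61 CPM with MN1-BEND2 and at 25.2 and 26.1 CPM with MN1-CXXC5, against 2.95 to 6.23 CPM (median 5.32) (log2 difference 1.62 with SE 0.069, edgeR adjusted p = 4.03e-09), and POU3F2, a neural factor, rose by 0.91, both more in MN1-CXXC5 cells.

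BMP and TGF-beta pathway genes rose in 20 and fell in 13 of 42. Beside the inhibitor NOG, the ligand gene BMP6 lay at 77.5 and 79.6 CPM with MN1-BEND2 and at 33.9 and 33 CPM with MN1-CXXC5, against 17.1 to 32.9 CPM (median 31.1) (log2 difference 0.98 with SE 0.032, edgeR adjusted p = 5.07e-10), and the receptor gene TGFBR1 rose by 0.71, both mostly in MN1-BEND2 cells. ID2, a target of BMP signalling that blocks basic helix-loop-helix factors, lay at 174 and 169 CPM with MN1-BEND2 and at 188 and 189 CPM with MN1-CXXC5, against 61.2 to 87.4 CPM (median 82.4) (log2 difference 1.23 with SE 0.027, edgeR adjusted p = 2.63e-11), and the difference between the fusions was small (-0.14, SE 0.04). Collagen and matrix genes rose in 13 and fell in 17 of 46. LOX, which cross-links collagen, lay at 329 and 325 CPM with MN1-BEND2 and at 88.7 and 85.7 CPM with MN1-CXXC5, against 45 to 53.5 CPM (median 45.9) (log2 difference 1.81 with SE 0.022, edgeR adjusted p = 1.52e-13), FBN1, the fibrillin of microfibrils, rose by 0.76, and LAMA4, a laminin chain, fell by 0.93 on the log2 scale. Epithelial junction and keratin genes rose in 4 and fell in 8 of 22. CTRL replicate 1 and MN1 replicate 1, both on the side without fusion, carried the salivary and squamous markers given above, among them the keratin genes KRT4 and KRT13, which are not members of the list. Without both libraries 4 members were higher and 7 lower, and the median was -0.20, compared with -0.28. DSP, a desmosome protein, lay at 934 and 988 CPM with MN1-BEND2 and at 557 and 607 CPM with MN1-CXXC5, against 326 to 365 CPM (median 340.0) (log2 difference 1.12 with SE 0.034, edgeR adjusted p = 2.55e-10), and JUP, its partner plakoglobin, fell by 0.62.

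Markers of glia and of ependymal cells, with which astroblastoma is compared, were called in both directions. Radial glia and astrocyte markers rose in 7 and fell in 7 of 20: VIM, an intermediate filament, rose by 0.35, and SLC1A3, a glutamate transporter, and NFIB, a transcription factor of glia, fell by 0.41 and 0.59. The SLC1A3 fall was mostly that of MN1-BEND2 cells: MN1-CXXC5 cells lay close to BEND2 cells, and MN1 cells were the highest line. TNC, a matrix glycoprotein of radial glia, lay at 19.2 and 19.8 CPM with MN1-BEND2 and at 64.2 and 63.9 CPM with MN1-CXXC5, 11 and 10.8 in MN1 and 35.7 and 36.2 in CTRL cells, and its value of 0.69 became -0.02 against CTRL alone (edgeR adjusted p = 0.718). Ependymal and cilium markers rose in 6 and fell in 2 of 15, and without CTRL replicate 1 and MN1 replicate 1 in 3 and 1. RFX2, a factor of ciliated cells, lay at 17.4 and 16.1 CPM with MN1-BEND2 and at 7.16 and 6.71 CPM with MN1-CXXC5, against 5.18 to 8.24 CPM (median 7.56). Its relative RFX3 fell by 0.33 on the log2 scale, but at RFX3 MN1-CXXC5 cells lay above MN1 cells. The calls of CCNO and MCIDAS, regulators of multiciliated cells, were weak (0.36 and 0.24, edgeR adjusted p = 0.0133 and 0.00983) and ended in 4 and 2 of 20 alternatives, among them without MN1-CXXC5 replicate 2 (edgeR adjusted p = 0.0761 for CCNO and 0.0699 for MCIDAS) and, for CCNO, without MN1-BEND2 replicate 2 (edgeR adjusted p = 0.0559). Transcriptional coactivator genes rose in 6 and fell in 8 of 20, with SMARCA2, an ATPase of BAF chromatin remodelling complexes, at 0.61, the nuclear receptor coactivator gene NCOA1 at 0.51 and the Mediator subunit gene MED1 at -0.16.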

How the data were processed

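RNA-seq of 10 TREx293 libraries was used. The authors' deposited values are raw gene counts. The submitters' processing notes name HISAT2, SAMtools 1.0.1 and featureCounts 2.0.0 and the build GRCh38 (hg38); for annotation release, strand and other options the answer is the same: not given in the sources used here. Per the labels' protocols, Trizol RNA went into VAHTS Universal V6 libraries, read in pairs on a DNBSEQ-T7. The 45 repeated identifiers were summed and 27 symbols turned into dates were restored; all 58216 identifiers were in GENCODE v29.

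All libraries entered 1 edgeR 4.0.16 fit (R 4.3.3, TMM, filterByExpr, quasi-likelihood F-test, group only, 5 residual degrees of freedom), and Benjamini-Hochberg adjustment ran over 18127 genes. The common biological coefficient of variation was 0.04. SE is that of the log2 fold change. The fit was tested on simulated data with known answers, where small falls of genes with few reads were missed more often than other differences. Replicates differed by more than counting noise (chi-square per degree of freedom 2.12 to 3.52). Alternatives were DESeq2 1.42.0, other scaling, no filter, GC and length offsets, a replicate block, other reference lines and leaving out libraries.

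Named genes were the construct genes; the 12 largest rises and falls and the 10 with the widest gap (0.5 CPM added) among calls without overlap reaching 5 CPM; up to 4 members of each list with the smallest adjusted p; and the 5 largest of each direction not called different between the fusions. Pseudogenes and genes with clone-based names were passed over, except as list members. The members, lists and rules were chosen with earlier results of these data known. CG content and the selection of printed promoters were chosen after their values were seen. Promoter sequences are from RefSeq (GRCh38.p14). Some named genes are not reported here.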

Additional observations from a re-analysis of the deposited data

Results flagged for a closer look

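The 12 largest rises are those without overlap that reached 5 CPM. Among them, 4 differed between the fusions by at least 2 on the log2 scale in the direct test of MN1-BEND2 against MN1-CXXC5. That limit was chosen after the values were seen. PCDH10 was higher in MN1-BEND2 cells by 2.18 (SE 0.17, edgeR adjusted p = 3.36e-07), GHR by 2.70 (SE 0.15, edgeR adjusted p = 2.65e-08) and SPHK1 by 2.03 (SE 0.076, edgeR adjusted p = 1.4e-09). SLC24A2 went the other way, at -2.07 (SE 0.15, edgeR adjusted p = 2.97e-07). In each of the 4 genes both libraries of the fusion with the higher level were above both of the other fusion, and all 4 fusion libraries were above the 6 libraries without fusion.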

How the results depend on the processing

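Under 20 alternatives (18 for the counts between fusions, among lines without fusion and against MN1, for which another reference line could not be used), most counts stayed within 1.5 times their value. The exceptions were as follows. DESeq2's Wald test called 2492 genes higher, 3045 lower, 117 lower by at least 1 on the log2 scale, 4626 different among lines without fusion, and 2363 higher and 2957 lower against MN1. Without a filter on low counts, 297 genes were lower by at least 1. With CTRL alone as reference, 292 were, and 2331 genes were higher and 2730 lower without overlap; with CTRL and BEND2 these were 1626 and 1627, where fewer libraries had to be passed. The cause of the other changes was not tested. Of the calls without overlap, 87.5% (DESeq2) to 100.0% kept their call and direction; of all calls, 64.2% (DESeq2) to 99.9% did. Leaving out 1 library at a time gave 3227 to 3695 genes higher and 4341 to 4702 lower, and 1068 to 1198 and 870 to 976 without overlap.

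Same-numbered replicates deviated together with correlations of 0.066 (BEND2 and MN1) to 0.29 (CTRL and MN1), not all above 0.1, so the number was not taken to pair libraries. With a replicate block 4204 genes were higher and 5365 lower, and no count moved by over 1.5 times.

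Over named genes and alternatives, 2603 values kept direction and call, 16 lost the call and 1 reversed: TNC, with a log2 fold change of -0.024 against CTRL alone (edgeR adjusted p = 0.718). EEF1D lost its call in 7 alternatives (edgeR adjusted p up to 0.529), CCNO in 4, IFNGR2 and MCIDAS in 2 and MCM5 in 1. Depth limits the near-silent genes: 3 counts are 0.112 to 0.189 CPM, an allowance for counting error only.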
